A study of Homo sapiens with 9 samples.

Results

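Cholesterol synthesis and fatty acid genes were examined in PC-3 cells, a human prostate cancer cell line, as a set of 30 genes of the 60617 gene identifiers in the files. The members were found by their gene symbols: 7 enzymes that lead from acetyl-CoA to farnesyl diphosphate, 11 that lead from farnesyl diphosphate through squalene to cholesterol, 5 genes for regulation and sterol transfer, and 7 genes of fatty acid synthesis and desaturation. All 30 passed the filter on low counts and were tested. RNA was sequenced from 9 libraries, each labelled as PC-3 cells taken 5 days after the start of treatment: 3 control libraries, 3 of cells given decitabine and 3 of cells given decitabine together with S-adenosylmethionine (SAM), named combination below. Per the study's methods, decitabine was used at 1 µM and SAM at 200 µM, and the control received the vehicle only. Decitabine is a nucleoside analog that traps DNA methyltransferases and lowers DNA methylation, and SAM is the methyl donor of those enzymes. Libraries of cells given SAM alone were not analysed here. No source says whether the libraries of a group came from separate cultures, so p-values measure the spread between these libraries, which may be technical, and PC-3 is a single line.

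Mammalian cells build cholesterol from acetyl-CoA through mevalonate, farnesyl diphosphate, squalene and lanosterol, and they build fatty acids from the same acetyl-CoA. Both routes are controlled by the sterol regulatory element-binding proteins (SREBPs), transcription factors encoded by SREBF1 and SREBF2. The SREBPs are held in the endoplasmic reticulum by SCAP and the INSIG proteins until sterols are scarce, and then move to the Golgi to be cleaved. They bind sterol response elements, often near sites for NF-Y and Sp1. Prostate cancer cells are known for active fatty acid synthesis.

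The promoters below are shown because they belong to the regulator whose window held the core of a sterol response element and to the members with the largest fall and the largest rise. The latter pair was added after their values were seen. Each sequence covers the 250 bases before the RefSeq transcription start on GRCh38.p14, written on the gene's strand. Capitals mark matches to the core TCACNCCAC, to the NF-Y box CCAAT or to the Sp1 box GGGCGG, each searched on both strands. The windows are chr22:41832855-41833104 on the plus strand for SREBF2, chr1:162790452-162790701 on the plus strand for HSD17B7 and chr4:110198616-110198865 on the minus strand for ELOVL6.
SREBF2: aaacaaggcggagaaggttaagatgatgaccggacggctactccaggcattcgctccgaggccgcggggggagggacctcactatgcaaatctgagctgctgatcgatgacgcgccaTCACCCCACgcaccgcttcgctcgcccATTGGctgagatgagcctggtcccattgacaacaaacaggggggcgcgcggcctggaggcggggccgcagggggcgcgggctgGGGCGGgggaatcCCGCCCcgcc
HSD17B7: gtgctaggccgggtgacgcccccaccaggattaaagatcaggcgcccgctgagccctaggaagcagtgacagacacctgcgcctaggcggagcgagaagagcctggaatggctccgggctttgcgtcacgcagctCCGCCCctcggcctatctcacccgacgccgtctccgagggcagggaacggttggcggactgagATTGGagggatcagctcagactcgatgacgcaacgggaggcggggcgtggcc
ELOVL6: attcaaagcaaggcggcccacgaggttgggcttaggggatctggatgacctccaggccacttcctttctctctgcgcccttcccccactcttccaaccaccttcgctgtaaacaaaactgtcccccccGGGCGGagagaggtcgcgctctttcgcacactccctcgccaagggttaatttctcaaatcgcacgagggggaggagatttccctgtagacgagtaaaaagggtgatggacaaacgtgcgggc
In SREBF2 the core read TCACCCCAC from base 133 to base 125 before the start, with an inverted NF-Y box from base 106 to base 102 and an Sp1 box in each orientation nearer the start. The HSD17B7 window held an inverted NF-Y box starting at base 52 and an inverted Sp1 box starting at base 115 before the start, and the ELOVL6 window held 1 Sp1 box, starting at base 122. No marked match overlapped another. Promoter windows were found for 26 of the 30 members, 35 windows in all, with no entry for ACAT2, FDFT1, SQLE and FASN. The TCACNCCAC core was in 1 of the 35 windows and in 0.883% of all 35116 windows of this length. The NF-Y box was in 23 of the 35 and in 32% of all windows, and the Sp1 box was in 31 of the 35 and in 42.6% of all windows. Some members have more than 1 window, and some of these overlap, so a site can be counted more than once. Counted by member, the NF-Y box was found in 19 of 26 and the Sp1 box in 25 of 26. These are matches of letters, and binding was not measured.

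Library totals lay between 21934307 and 22489684 estimated counts, and each member had between 181 and 9263 counts in every library. Levels are given as CPM, a count scaled to a common library total, here with the totals adjusted by the trimmed mean of M-values (TMM). The TMM factors were 0.895 to 0.902 in the controls and 1.03 to 1.08 in the treated libraries. When library size alone was used for scaling, the median over all genes tested moved, on the log2 scale, from 0.035 to 0.281 for decitabine and from 0.048 to 0.268 for the combination. The epithelial markers KRT8, KRT18, KRT19, EPCAM and CDH1 were detected in every library. They summed to 876 to 956 CPM in the controls, 869 to 922 CPM after decitabine and 726 to 868 CPM after the combination. On the log2 scale KRT8 rose by 1.14 and 0.8 in that order, and CDH1 by 2.94 and 3.17 from a mean of 1.87 CPM. KRT18 fell by 0.25 and 0.43 and KRT19 by 0.58 and 0.66, while EPCAM was at 0.24 and 0.34 with overlapping groups. The 5 androgen-dependent prostate markers summed to 2.19 to 3.06 CPM in the controls, 7.82 to 10.6 CPM after decitabine and 6.12 to 7.45 CPM after the combination, with KLK3 at 0 in all libraries. The 5 leukocyte and endothelial markers summed to 9.88 to 10.6 CPM in the controls, 31.2 to 42.2 CPM after decitabine and 37.2 to 44.2 CPM after the combination, nearly all of it PECAM1, with CD3E at 0 in the controls. Their part in the results was not tested.

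Most of the 30 genes were lower after either treatment, and 5 of them were higher. After decitabine, 17 members fell, 5 rose and 8 did not pass the test, for which edgeR's quasi-likelihood test across 18532 genes had to give an adjusted p under 0.05. Falls made up 56.7% of the members against 32.5% of all genes tested, and rises 16.7% against 36.3%. Calls in either direction made up 73.3% of the members against 68.8% of all genes. After the combination, 16 members fell, 5 rose and 9 did not pass, a share of 53.3% lower against 31.3% of all genes and 16.7% higher against 35.9%. Calls in either direction made up 70.0% of the members and 67.2% of all genes. The groups did not overlap in 5 members that were higher and 18 that were lower after decitabine, against 38.1%, 34.8% and, in either direction, 72.9% of all genes, and in 5 and 17 members after the combination, against 38%, 33.6% and 71.6%. The median log2 fold change of the members was -0.27 for decitabine and -0.29 for the combination. Under scaling by library size alone, 13 members were called lower and 7 higher after decitabine, and 11 lower and 10 higher after the combination. Of all 18532 genes, that scaling called 3746 lower and 8849 higher after decitabine. After the combination it called 3857 lower and 8695 higher. The comparisons share the control libraries, so the resemblance of their values is no independent result.

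The summed level of the 30 genes was 3036.7 ± 141 CPM in the controls (SD, n = 3), 2313.6 ± 39.4 CPM after decitabine and 2468.6 ± 13.8 CPM after the combination. The largest part of that sum came from the 7 fatty acid genes, at 1492.2 ± 52.5, 1023.0 ± 76.3 and 1070.3 ± 18.9 CPM (SD, n = 3). The 11 genes from squalene to cholesterol summed to 775 ± 43.7, 712 ± 21.8 and 792 ± 3.79 CPM in the same order. With TMM scaling their total in the combination libraries was thus close to that of the controls. Of unadjusted counts they made up 0.0667 to 0.0738%, 0.0725 to 0.0783% and 0.0816 to 0.0849%, so this share was higher after the combination. The 7 fatty acid genes made up 0.129 to 0.139%, 0.102 to 0.116% and 0.109 to 0.114% of unadjusted counts. All 30 genes made up 0.265 to 0.286%, 0.244 to 0.248% and 0.253 to 0.264%. Per kilobase of exon, the highest control levels were those of EBP at 70.4, SCD at 59.2 and FDPS at 52.9 CPM per kilobase. The lowest were those of TM7SF2 at 4.53, ELOVL6 at 2.88 and STARD4 at 2.87 CPM per kilobase. CPM is a relative level, and in bulk samples a change in all cells cannot be told apart from a change in some of them.

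**Figure D1:**
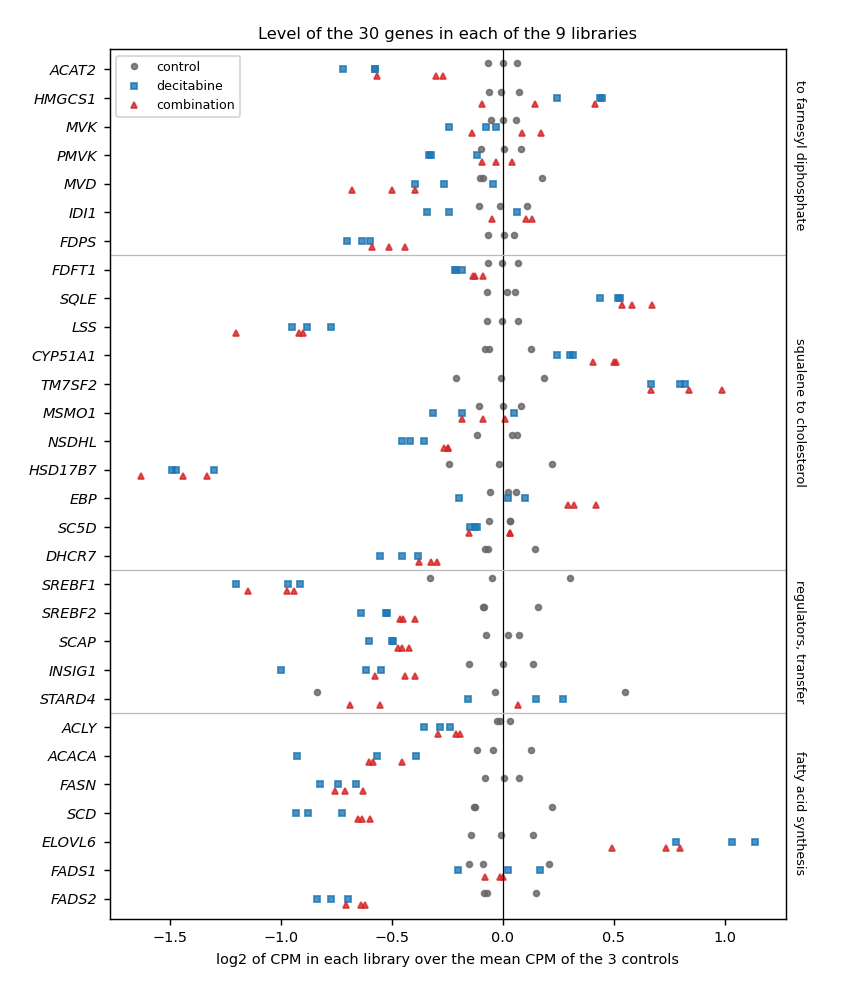
Level of each of the 30 genes in each of the 9 libraries. The horizontal axis is the log2 of a library's TMM-scaled CPM over the mean CPM of the 3 controls, grey circles are controls, blue squares decitabine and red triangles combination. All treated libraries lie to the left of the controls for HSD17B7, LSS, SREBF1 and FASN and to the right for ELOVL6, TM7SF2 and SQLE, while STARD4 spreads over all groups.

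The genes that control the pathway were considered first. All 4 of SREBF1, SREBF2, SCAP and INSIG1 fell after either treatment, by 0.44 to 1.02 on the log2 scale. Together with STARD4, given below, 80% of this list was lower, against 32.5% of all genes after decitabine and 31.3% after the combination. SREBF1 (chr17:17810399-17837002, minus strand), whose product mainly drives fatty acid genes, was at 65.2, 51.1 and 42.0 CPM in the controls, 28.0, 27.0 and 22.9 CPM after decitabine and 27.5, 26.9 and 23.8 CPM after the combination. The controls varied most among themselves, and the lowest of them was above every treated library. In edgeR's quasi-likelihood test SREBF1 fell by 1.02 after decitabine (SE 0.14, adjusted p = 3.6e-05) and by 1.02 after the combination (SE 0.14, adjusted p = 4e-05). Its exons share 556 bases with RAI1 on the other strand, and RAI1 was itself lower, at a mean of 58.9, 41.2 and 44.5 CPM. The strand setting of the counting is not given in the sources used here, so reads of the shared stretch cannot be told apart.

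SREBF2 (chr22:41833105-41907306, plus strand), whose product mainly drives sterol genes and whose promoter is printed above, was at 93.1, 78.6 and 78.5 CPM in the controls. It was at 53.5, 57.8 and 58.1 CPM after decitabine and at 60.4, 61.1 and 63.4 CPM after the combination. The groups did not overlap. SREBF2 fell by 0.56 after decitabine (SE 0.08, adjusted p = 2e-05) and by 0.44 after the combination (SE 0.08, adjusted p = 0.00021). SCAP, the sterol-sensing escort of the SREBPs, was at 141, 136 and 127 CPM in the controls, 88.2, 94.8 and 95 CPM after decitabine and 96.6, 97.7 and 99.8 CPM after the combination. It fell by 0.54 (SE 0.07, adjusted p = 5.8e-06) and 0.46 (SE 0.07, adjusted p = 2.9e-05). Here too every treated library was below every control.

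INSIG1, which retains SCAP in the endoplasmic reticulum and is itself a target of the SREBPs, was at 23.3, 19.1 and 21.2 CPM in the controls. Its levels were 10.6, 13.8 and 14.5 CPM after decitabine and 14.2, 16.1 and 15.6 CPM after the combination. INSIG1 fell by 0.71 (SE 0.12, adjusted p = 0.00014) and 0.47 (SE 0.12, adjusted p = 0.0033), and its call for the combination was lost under library size alone. STARD4, which carries cholesterol between membranes, was at 23.9, 15.9 and 9.13 CPM in the controls, a wider spread than any difference between the groups. Its log2 fold change was 0.10 with a 95% interval from -0.73 to 0.92 after decitabine and -0.35 with an interval from -1.19 to 0.49 after the combination, so a change in either direction could not be resolved.

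From acetyl-CoA to farnesyl diphosphate, 1 of 7 members rose and 3 fell after decitabine, and 3 fell and none rose after the combination. The shares were 14.3% higher and 42.9% lower after decitabine, against 36.3% and 32.5% of all genes. After the combination 42.9% were lower, against 31.3% of all genes, while 35.9% of all genes were higher. FDPS, which makes farnesyl diphosphate, was at 204, 198 and 188 CPM in the controls, 127, 130 and 121 CPM after decitabine and 145, 138 and 131 CPM after the combination. All controls stood well above the treated libraries. FDPS fell by 0.64 (adjusted p = 1.3e-06) and 0.51 (adjusted p = 1.3e-05). ACAT2, the cytosolic thiolase that joins acetyl-CoA units at the first step, fell from a mean of 40.6 ± 1.84 CPM in the controls to 26.3 ± 1.5 CPM and 31.3 ± 3.4 CPM (SD, n = 3). Its log2 fold changes were -0.62 and -0.37, with adjusted p = 2.8e-05 and 0.0021, and the call for the combination was lost under library size alone. ACAT2 shares 454 exon bases with TCP1 on the other strand, a gene with a mean of 9527 counts against 720.7 for ACAT2. TCP1 did not pass the test in either comparison with the controls, at log2 fold changes of -0.14 and 0.18. In edgeR's quasi-likelihood test of the combination against decitabine, TCP1 was higher by 0.32 (adjusted p = 0.019).

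HMGCS1, which makes HMG-CoA, was the member of the early steps that rose after decitabine. It was at 60.7, 55.3 and 57.4 CPM in the controls, 68.5, 78.7 and 78.3 CPM after decitabine and 54.1, 63.9 and 77.2 CPM after the combination. The decitabine libraries lay above all controls, while the combination libraries reached from below the controls to the level of decitabine. HMGCS1 rose by 0.38 after decitabine (adjusted p = 0.0068), and its difference after the combination was 0.17 with a 95% interval from -0.06 to 0.41 (adjusted p = 0.18). MVD, the mevalonate diphosphate decarboxylase, had the reverse order, with a log2 fold change of -0.23 after decitabine (adjusted p = 0.078) and a fall of 0.52 after the combination (adjusted p = 0.00078). That MVD was called after only 1 of the treatments does not show a difference between them, since the direct difference was -0.29 with a 95% interval from -0.53 to -0.06 and adjusted p = 0.086. The same holds for HMGCS1, with a direct difference of -0.21, a 95% interval from -0.44 to 0.02 and adjusted p = 0.21.

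A pair of kinases and an isomerase act between these steps. PMVK, the phosphomevalonate kinase, fell by 0.25 after decitabine (adjusted p = 0.014), a call that was lost without control replicate 2 or without decitabine replicate 2 and under library size alone. Its log2 fold change after the combination was -0.03, with a 95% interval from -0.2 to 0.15. The direct difference between the treatments was 0.23 and did not pass the test (adjusted p = 0.075). MVK, the mevalonate kinase, had log2 fold changes of -0.12 and 0.04, and IDI1, the isopentenyl diphosphate isomerase, of -0.16 and 0.06. Neither passed the test, and the intervals of MVK allowed -0.31 to 0.08 after decitabine and -0.15 to 0.24 after the combination. Under library size alone HMGCS1 (0.40), MVK (0.26), PMVK (0.19) and IDI1 (0.29) were called higher after the combination. MVK shares 225 exon bases with MMAB on the other strand, which fell by 1.34 after decitabine (adjusted p = 3.3e-09) and by 1.44 after the combination (adjusted p = 1.7e-09).

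From squalene to cholesterol, 3 of 11 enzymes rose and 5 fell after decitabine, and 4 rose and 4 fell after the combination. The shares were 27.3% higher and 45.5% lower after decitabine, against 36.3% and 32.5% of all genes. After the combination they were 36.4% and 36.4%, near the 35.9% and 31.3% of all genes. The largest fall of any member was that of HSD17B7 (chr1:162790702-162812823, plus strand), the 3-ketosteroid reductase of the demethylation of lanosterol, whose promoter is printed above. HSD17B7 was at 28.8, 24.4 and 20.9 CPM in the controls, 10, 8.90 and 8.77 CPM after decitabine and 9.10, 7.96 and 9.80 CPM after the combination. No treated library came near the lowest control. HSD17B7 fell by 1.42 after decitabine (SE 0.13, adjusted p = 2.7e-07). After the combination it fell by 1.46 (SE 0.13, adjusted p = 2.2e-07). A transcribed pseudogene, HSD17B7P2, was at a mean of 2.62, 1.0 and 0.997 CPM and also fell, by 1.38 and 1.39, so the division of reads between both genes is uncertain.

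LSS (chr21:46188141-46228824, minus strand), the synthase that closes the rings of lanosterol, was at 82.1, 78.0 and 74.5 CPM in the controls, 40.5, 42.4 and 45.7 CPM after decitabine and 34.0, 41.9 and 41.3 CPM after the combination. The lowest control lay far above the highest treated library. LSS fell by 0.87 after decitabine (SE 0.09, adjusted p = 8.2e-07) and by 1.0 after the combination (SE 0.09, adjusted p = 2.2e-07). DHCR7, the last reductase of one branch to cholesterol, fell by 0.46 (adjusted p = 9.9e-05) and 0.33 (adjusted p = 0.0015). NSDHL, which works with HSD17B7 in the removal of methyl groups, fell by 0.41 (adjusted p = 0.00012) and 0.25 (adjusted p = 0.0049). The combination calls of DHCR7 and NSDHL, and the decitabine call of NSDHL, were lost under library size alone.

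FDFT1, which makes squalene, fell by 0.20 after decitabine (adjusted p = 0.011), a value that became 0.04 under library size alone. After the combination its log2 fold change was -0.12 (adjusted p = 0.12), and the direct difference between the treatments was 0.09 (adjusted p = 0.38). The next enzyme, SQLE, which oxidises squalene and is often rate-limiting, went the other way. SQLE was at 69.0, 63.3 and 67.3 CPM in the controls, 90.2, 96.0 and 95.4 CPM after decitabine and 96.6, 99.6 and 106 CPM after the combination. All 6 treated libraries lay above the controls. SQLE rose by 0.50 after decitabine (SE 0.07, adjusted p = 1.6e-05) and by 0.60 after the combination (SE 0.07, adjusted p = 2.8e-06). SQLE and LSS, which act one after the other, thus moved in opposite directions in both comparisons.

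TM7SF2 (chr11:65111845-65116384, plus strand), a sterol reductase of the endoplasmic reticulum, was at 17.6, 15.4 and 13.4 CPM in the controls, 27.4, 27.0 and 24.6 CPM after decitabine and 30.7, 27.7 and 24.6 CPM after the combination. The groups of treated libraries overlapped each other and not the controls. TM7SF2 rose by 0.77 after decitabine (SE 0.11, adjusted p = 2.8e-05) and by 0.84 after the combination (SE 0.11, adjusted p = 1.3e-05). It shares 18 exon bases with its neighbor VPS51, which fell by 1.11 and 0.83. CYP51A1, the lanosterol demethylase, rose by 0.29 (adjusted p = 0.0027) and 0.47 (adjusted p = 4.5e-05). Its exons share 108 bases with AKAP9 on the other strand, which did not pass the test in either comparison.

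MSMO1, the sterol oxidase that begins the later removal of methyl groups, and SC5D, the sterol desaturase, did not pass the test in either comparison. MSMO1 was at log2 fold changes of -0.14 and -0.08, with 95% intervals from -0.37 to 0.1 and from -0.32 to 0.16. SC5D was at -0.13 and -0.03, with intervals from -0.29 to 0.03 and from -0.18 to 0.13. SC5D turned to 0.19 after the combination under library size alone (adjusted p = 0.034).

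**Figure D2:**
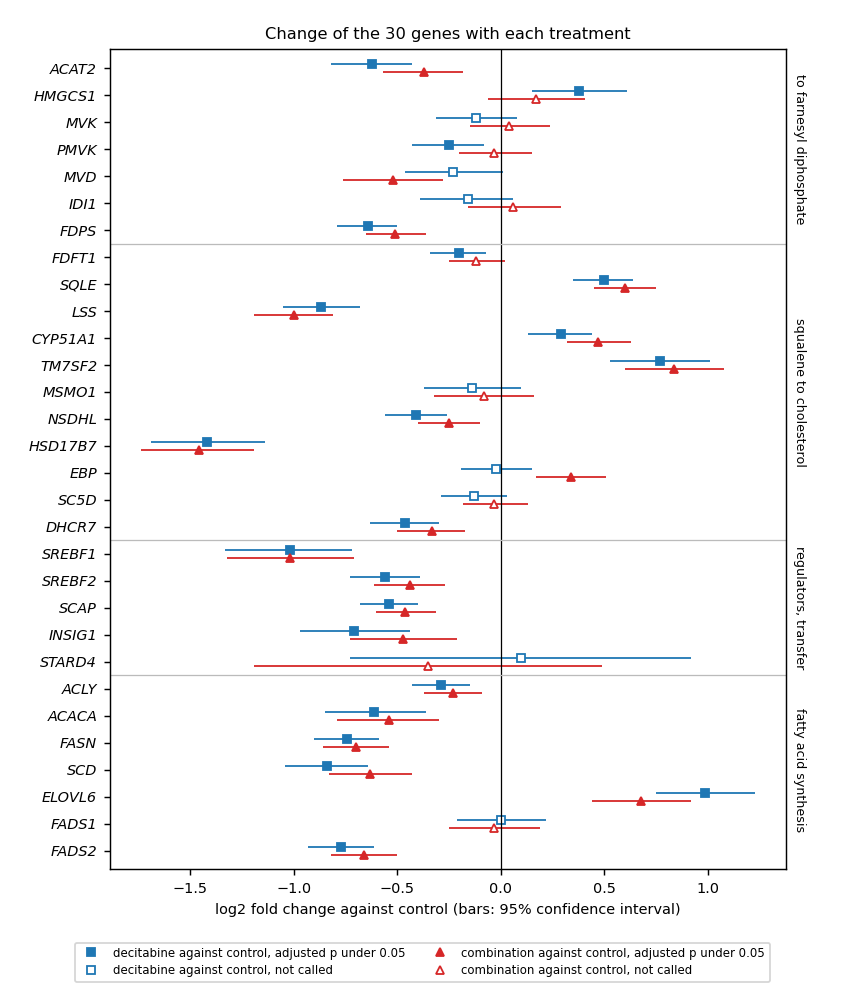
Log2 fold change of each of the 30 genes after decitabine (blue squares) and after the combination (red triangles), both against the same 3 controls. Bars are 95% confidence intervals, and filled symbols passed edgeR's quasi-likelihood test at an adjusted p of 0.05. The sterol enzymes lie on both sides of 0, from HSD17B7 at -1.42 and -1.46 to TM7SF2 at 0.77 and 0.84, and the interval of STARD4 is the widest.

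Of the 7 genes of fatty acid synthesis and desaturation, 5 fell and 1 rose after each treatment. These were 71.4% lower and 14.3% higher. Among all genes the shares were 32.5% and 36.3% after decitabine and 31.3% and 35.9% after the combination. FASN, the fatty acid synthase, was at 410, 435 and 457 CPM in the controls, 274, 259 and 245 CPM after decitabine and 257, 280 and 265 CPM after the combination. It had the highest CPM of the members, and its lowest control was far above every treated library. FASN fell by 0.74 (adjusted p = 6e-07) and 0.70 (adjusted p = 1.1e-06). SCD, the stearoyl-CoA desaturase that makes monounsaturated fatty acids, was at 363, 285 and 284 CPM in the controls, 188, 169 and 163 CPM after decitabine and 198, 205 and 200 CPM after the combination. SCD fell by 0.84 (adjusted p = 2e-06) and 0.63 (adjusted p = 3.5e-05).

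The enzymes that supply FASN were lower as well. ACACA, the acetyl-CoA carboxylase that makes malonyl-CoA, was at 121, 127 and 143 CPM in the controls, 100, 88.4 and 68.9 CPM after decitabine and 87.3, 95.5 and 86.3 CPM after the combination. Its decitabine libraries were the most spread of the 3 groups, and still none reached a control. ACACA fell by 0.61 (adjusted p = 0.00038) and 0.54 (adjusted p = 0.00093). ACLY, which makes cytosolic acetyl-CoA from citrate, fell by 0.29 (adjusted p = 0.0012) and 0.23 (adjusted p = 0.0064), and both calls were lost under library size alone.

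ELOVL6 (chr4:110045846-110199199, minus strand), which extends the products of FASN by a pair of carbons, was the fatty acid member that rose. ELOVL6 was at 19, 20.9 and 23.1 CPM in the controls, 46.2, 43.0 and 36.1 CPM after decitabine and 36.5, 29.5 and 35.0 CPM after the combination. All treated libraries were above the controls, and the combination libraries tended to lie under those of decitabine with an overlap. ELOVL6 rose by 0.99 after decitabine (SE 0.11, adjusted p = 2.4e-06), the largest rise of any member, and by 0.68 after the combination (SE 0.11, adjusted p = 9.2e-05). The direct difference between the treatments was -0.31 with a 95% interval from -0.54 to -0.08 and did not pass the test (adjusted p = 0.066).

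The desaturases FADS1 and FADS2, which act in turn on polyunsaturated fatty acids, are neighbors on chromosome 11 and are read in opposite directions. Their RefSeq starts, at base 61817003 for FADS1 and at bases 61816203 and 61816404 for FADS2, lie 800 and 599 bases apart. FADS2 was at 232, 197 and 199 CPM in the controls, 129, 122 and 117 CPM after decitabine and 136, 134 and 128 CPM after the combination. FADS1 was at 150, 122 and 117 CPM in the controls, 146, 132 and 113 CPM after decitabine and 129, 123 and 130 CPM after the combination. FADS2 was thus lower in every treated library, while the groups of FADS1 overlapped. FADS2 fell by 0.77 (adjusted p = 7.2e-07) and 0.66 (adjusted p = 3.4e-06). The log2 fold changes of FADS1 were 0.00 with a 95% interval from -0.21 to 0.22 and -0.03 with an interval from -0.25 to 0.19. Under library size alone FADS1 was called higher after decitabine. The annotated exons of the pair share 490 bases on opposite strands.

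The difference that SAM made in cells given decitabine was addressed by comparing the combination with decitabine alone. Without libraries of SAM alone, an effect of SAM by itself cannot be told apart from a changed response to decitabine. In edgeR's quasi-likelihood test at an adjusted p under 0.05, 1 of the 30 members was higher and none lower, against 7.67% higher, 8.02% lower and 15.7% in either direction among all genes. DESeq2 and voom with limma called the same single gene. That gene was EBP (chrX:48521799-48528716, plus strand), the sterol isomerase that moves the double bond of the sterol ring. EBP was at 129, 126 and 119 CPM in the controls, 108, 126 and 133 CPM after decitabine and 166, 155 and 152 CPM after the combination. The decitabine libraries spanned the controls, and all 3 combination libraries were above both. EBP was higher in the combination than with decitabine alone by 0.36 (SE 0.08, 95% interval 0.19 to 0.53, adjusted p = 0.0092) and rose by 0.34 against the controls (adjusted p = 0.0017). Its difference for decitabine was -0.02 with an interval from -0.19 to 0.15, a value that became 0.22 under library size alone (adjusted p = 0.023).

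For the members that changed most against the controls, the differences between the treatments did not pass the test. The difference was -0.04 for HSD17B7 with a 95% interval from -0.33 to 0.24, 0.01 for SREBF1 with an interval from -0.3 to 0.32, and 0.04 for FASN with an interval from -0.11 to 0.2. It was -0.13 for LSS with an interval from -0.32 to 0.06. The intervals of ELOVL6, given above, and of SCD, 0.22 with an interval from 0.02 to 0.41, excluded 0 before adjustment. Of the 30 fitted differences, 23 were above 0 and 7 below, with a median of 0.09 against 0.002 for all genes. In 12 members every combination library lay above every decitabine library, and in 1 member every one lay below, against 17.2% and 16.8% of all genes, or 34% in either direction. The members above in this way were EBP, then SQLE and CYP51A1, which were called higher after decitabine, and ACAT2, PMVK, FDPS, FDFT1, NSDHL, DHCR7, SREBF2, SCAP and SCD, which were called lower. The estimates were 0.25 for ACAT2 (adjusted p = 0.077), 0.22 for SCD (adjusted p = 0.13) and 0.19 for CYP51A1 (adjusted p = 0.091), and the member with its libraries below was MVD. TCP1, which shares exon bases with ACAT2, was called higher here, as given above. EBP was called whichever library was left out, while further calls depended on single libraries. Without decitabine replicate 3 there were 3 members called higher, EBP among them, and 1 lower. Without combination replicate 3 there were 3 higher, again with EBP, and 2 lower.

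**Figure D3:**
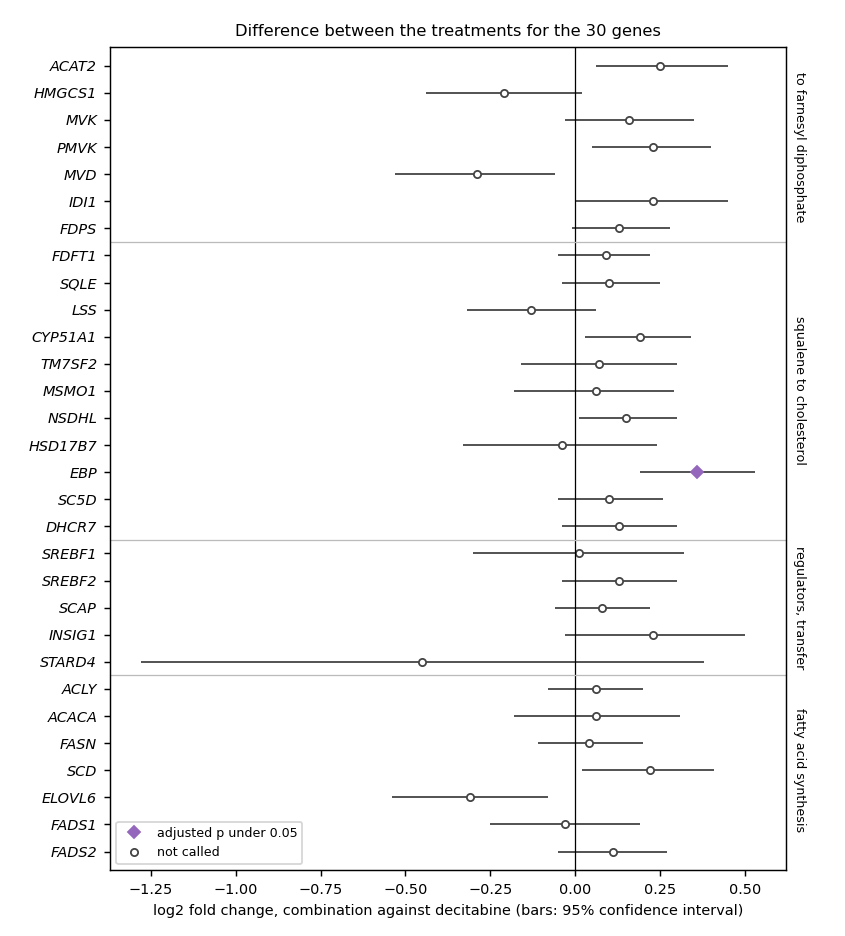
Log2 fold change of the combination against decitabine alone for each of the 30 genes, with 95% confidence intervals as bars. The filled diamond is EBP at 0.36, the 1 member that passed an adjusted p of 0.05, and open circles did not pass. Most estimates lie a little to the right of 0, and STARD4 has the widest interval.

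The members were set beside 91 other genes of sterol and fatty acid metabolism in 6 lists, of which 89 were tested. After decitabine 24 of these rose and 34 fell, and after the combination 29 rose and 36 fell. The percentages of all genes called are those given above, 36.3% higher and 32.5% lower for decitabine and 35.9% higher and 31.3% lower for the combination.

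The list closest to the regulators holds 9 genes that process the SREBPs or sense sterols. After decitabine 2 rose and 3 fell, and after the combination 3 rose and 3 fell. MBTPS1, the protease that makes the first cut in the SREBPs in the Golgi, was at 147, 140 and 133 CPM in the controls, 93.9, 93.8 and 84.9 CPM after decitabine and 76.4, 72.6 and 83.4 CPM after the combination. It fell by 0.63 (adjusted p = 3.9e-06) and 0.86 (adjusted p = 2e-07). ERLIN1, a membrane protein that restrains the SREBPs, fell by 0.97 and 1.31. INSIG2, the relative of INSIG1, rose by 0.39 after decitabine (adjusted p = 0.0037) and by 0.34 after the combination (adjusted p = 0.0098). INSIG1 and INSIG2 thus moved in opposite directions. PAQR3, a Golgi anchor of SCAP, rose by 0.40 after the combination.

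The isoprenoid branches, which use farnesyl diphosphate for ubiquinone, dolichol and protein prenylation, fell in 9 of 12 genes after decitabine and in 11 of 12 after the combination, with no rise. Their median log2 fold changes were -0.49 and -0.46. PDSS2, a subunit of the enzyme that builds the side chain of ubiquinone, was at 24.1, 21.1 and 20.3 CPM in the controls, 5.58, 5.65 and 4.74 CPM after decitabine and 6.10, 7.17 and 5.92 CPM after the combination. PDSS2 fell by 2.03 (adjusted p = 6.2e-09) and 1.77 (adjusted p = 2e-08), and its partner subunit PDSS1 by 1.25 and 1.17. No treated library came near the controls for PDSS2.

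Among 15 tested genes of sterol transport, storage and efflux, 6 rose and 4 fell in either comparison. ABCA1, which exports cholesterol from cells, was at 12.6, 11.5 and 15.2 CPM in the controls, 32.6, 26.1 and 22.5 CPM after decitabine and 25, 26.7 and 25.7 CPM after the combination. ABCA1 rose by 1.05 (adjusted p = 8.3e-06) and 0.98 (adjusted p = 1.7e-05). NR1H3, which encodes the sterol-sensing receptor LXR-alpha, rose by 0.57 and 0.92, and NPC2, a lysosomal cholesterol carrier, by 0.63 and 0.73. ABCG1, another exporter, fell by 0.64 after decitabine (adjusted p = 0.0028) and 0.37 after the combination (adjusted p = 0.049). Its combination libraries, at 26.3, 27.9 and 23.8 CPM, overlapped the controls, at 40.6, 34.5 and 25.6 CPM. The exporters thus moved in opposite directions after decitabine, while the fall of ABCG1 after the combination is less certain. LRP8, a lipoprotein receptor, fell by 1.39 and 1.44, and OSBP, an oxysterol-binding protein, by 0.52 and 0.74.

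Of 24 tested genes of fatty acid supply, elongation and activation, 8 rose and 8 fell after decitabine, and 9 rose and 5 fell after the combination. ELOVL7, a relative of ELOVL6 for longer chains, was at 0.0993, 0.400 and 0.494 CPM in the controls and between 2.46 and 3.88 CPM in the treated libraries, with rises of 3.37 (adjusted p = 1.2e-06) and 3.12 (adjusted p = 3.1e-06). ACSL6, an acyl-CoA synthetase, rose by 2.13 and 2.83 from a mean of 0.282 CPM. Both were scarce in the controls. HACD3, a dehydratase of elongation, fell by 0.42 and 0.34, and ACACB, the mitochondrial relative of ACACA, by 0.30 and 0.45. ACSL1 fell by 0.50 after decitabine, and ACSS2, which makes acetyl-CoA from acetate, by 0.58 after the combination.

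Fatty acid oxidation, the breakdown route, fell in 8 of 18 genes and rose in 3 after decitabine, and fell in 9 and rose in 4 after the combination. HADH, a dehydrogenase of the mitochondrial cycle, was at 38.7, 36.8 and 41.4 CPM in the controls, 16.1, 13.5 and 11.8 CPM after decitabine and 20.7, 17.9 and 12.7 CPM after the combination, with falls of 1.5 and 1.19. The low-level ACADL fell by 1.05 and 1.07. In contrast SLC25A20, the carnitine carrier, rose by 0.98 (adjusted p = 5.3e-08) and 1.08 (adjusted p = 2e-08), and the thiolase ACAA2 by 0.70 and 0.80. Of 11 genes of glycerolipids and lipid droplets, 5 rose and 2 fell after decitabine and 7 rose and 4 fell after the combination. DGAT2, which makes triglyceride, rose by 1.21 and 1.20, and PNPLA2, which breaks it down, by 1.03 and 1.23. The lipins LPIN1 and LPIN3 fell, LPIN1 by 0.66 and 0.78 and LPIN3 by 0.46 and 0.59.

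**Figure D4:**
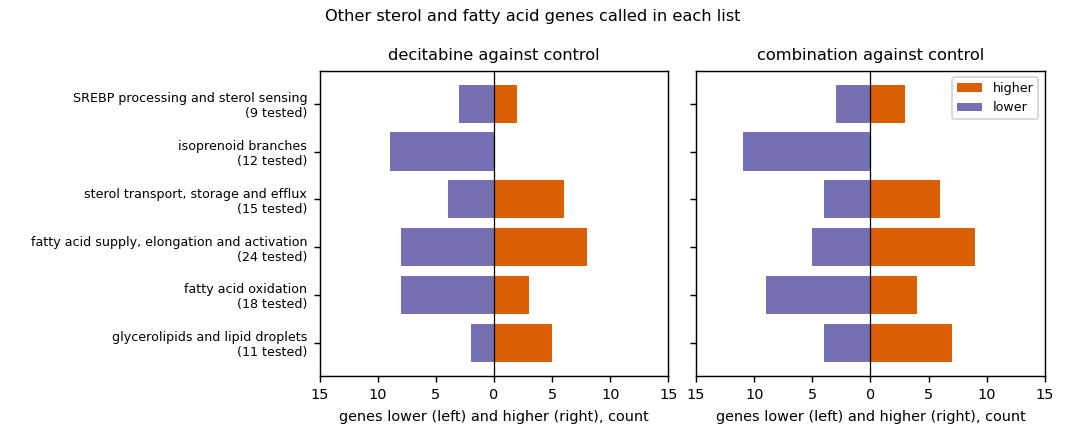
Number of genes called lower (bars to the left) and higher (bars to the right) in each of 6 lists of other sterol and fatty acid genes, after decitabine (left panel) and after the combination (right panel), each against the 3 controls. The isoprenoid branches have bars to the left only, with 9 and 11 of 12 genes, while the other lists have bars on both sides.

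Between the treatments, 9 of the 89 genes were higher in the combination and 6 lower, shares of 10.1% and 6.74% near the 7.67% and 8.02% of all genes. GPAM, which starts glycerolipid synthesis, was at 21.9, 26.7 and 30.4 CPM in the controls, 28.5, 25.1 and 26.7 CPM after decitabine and 47.0, 47.3 and 44.3 CPM after the combination. The first 2 groups overlapped and the combination stood above both, by 0.79 over decitabine (adjusted p = 0.0006). AGPAT2, the next enzyme of that route, was higher by 0.44 (adjusted p = 0.0057), and ACSL1 by 0.36 (adjusted p = 0.013). GGPS1, which makes geranylgeranyl diphosphate, was at 16.3, 16 and 16 CPM in the controls, 17.5, 16.5 and 15.8 CPM after decitabine and 11.5, 11.6 and 12.1 CPM after the combination. GGPS1 was lower than with decitabine by 0.50 (adjusted p = 0.0037), ACSS2 by 0.50 (adjusted p = 0.0029) and ACADVL, an oxidation enzyme for very long chains, by 0.40 (adjusted p = 0.002). GPAM, AGPAT2 and GGPS1, like EBP among the members, did not pass the test after decitabine alone.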

How the data were processed

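RNA-seq of 9 PC-3 libraries (3 control, 3 decitabine, 3 combination) was analysed, with groups and replicate numbers taken from the labels. Per the labels and the study's methods, the authors trimmed reads with Trim Galore 0.6.4 and counted them with kallisto against GRCh38.p13. The deposited estimated counts per Ensembl gene were not normalized and were rounded to whole numbers here. The deposited log2 CPM values were not used. Of 60617 identifiers, 60357 matched GENCODE release 44, including all 30 members, which gave symbols and positions. Quantification by kallisto divides reads that fit several transcripts, so genes with shared sequence are less certain.

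The 18532 genes that passed filterByExpr were tested in edgeR 4.0.16 (R 4.3.3) with TMM scaling and the robust quasi-likelihood test, 1 mean per group over all 9 libraries. P-values were adjusted over all genes by the Benjamini-Hochberg method, with a threshold of 0.05. All intervals are 95% intervals of the fit. The code was tested on simulated data. Totals of 21934307 or more counts left every member far above the filter. No pair of libraries was alike enough to be copies of 1 library. Alternatives were DESeq2 1.42.0 and its size factors, library size alone, voom with limma 3.58.1, the unfiltered table, a minimum mean of 10 counts, a fit of just the 6 libraries in question, a replicate block, a log2 fold change above 0.5, and the omission of each library.

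The members and lists were chosen with earlier results of these data known. All 30 members are named. Full statistics are given for the 3 largest rises and falls and for 4 regulators. From each other list, up to 2 called genes per direction with a mean of at least 1 CPM in a group are named in each comparison with the controls, and up to 3 per direction between the treatments. Promoters came from RefSeq. Some results on single genes are left out of the text.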

Additional observations from a re-analysis of the deposited data

How the results depend on the processing

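Across DESeq2, its size factors, voom with limma, a mean of at least 10 counts and only the 6 libraries compared, the member calls of all 3 comparisons were the same genes. Library size alone gave 10 members higher after the combination and 37 other genes higher and 21 lower after decitabine, and it reversed the sign of FDFT1 (0.04) and EBP (0.22) after decitabine and PMVK (0.19) and SC5D (0.19) after the combination. Estimates with no call under either scaling also changed sign, those of MVK (0.13), MVD (0.02), IDI1 (0.08), MSMO1 (0.11) and SC5D (0.12) after decitabine, of FDFT1 (0.10), MSMO1 (0.14) and FADS1 (0.19) after the combination, and of SREBF1 between the treatments (-0.02). A cutoff on the estimate, with calls kept only beyond a log2 fold change of 0.5, left 2 members higher and 12 lower after decitabine. It left 3 higher and 9 lower after the combination, and 0 between the treatments. No test against 0.5 was made. Of all genes tested, the cutoff left 5544 higher and 3730 lower after decitabine and 5379 and 3682 after the combination. Between the treatments it left 399 and 841. For the other sterol and fatty acid genes the cutoff left 15 higher and 17 lower after decitabine. After the combination it left 14 higher and 21 lower, and between the treatments 1 higher and 2 lower. Without the filter, 2 members, MVD and ELOVL6, were lower in the combination than with decitabine, and with only the 6 libraries compared 5 other genes were higher. Leaving out 1 library gave 1 to 3 members higher and 0 to 2 lower between the treatments, the extra ones without decitabine replicate 3 (PMVK and IDI1 higher, ELOVL6 lower) or combination replicate 3 (ACAT2 and PMVK higher, HMGCS1 and MVD lower). EBP was called in all 9 of these fits. For the other genes between the treatments the range was 2 to 11 higher and 3 to 11 lower, with 2 higher and 3 lower without decitabine replicate 2, 3 and 3 without combination replicate 2, 3 higher without combination replicate 1, 5 higher without control replicate 2 or decitabine replicate 1, and 11 lower without combination replicate 3. Against the controls, PMVK lost its decitabine call without control replicate 2 or decitabine replicate 2, MVD and IDI1 gained one without decitabine replicate 3, and HMGCS1 gained one for the combination without combination replicate 1. Where no other value is given, the cause of a change was not tested.

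The deviations of same-numbered libraries correlated by -0.011, -0.033 and 0.016 for control and decitabine and by 0.102, 0.003 and 0.069 for control and combination. For decitabine and combination they correlated by 0.294, 0.043 and 0.292. The crossed pairs of replicates 1 and 3 of these treatments correlated by -0.286 and -0.279. Whether the treated libraries were paired was not tested. With a replicate block, calls among all genes between the treatments moved from 1421 to 1766 higher and from 1487 to 1890 lower. With the replicate block the member calls were the same genes, and 11 other genes were lower between the treatments. With 3 libraries a group, differences inside the printed intervals could not be resolved.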
